A study of Homo sapiens with 27 samples.

Results

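22Rv1 is a prostate cancer cell line that grows without added androgen and expresses the androgen receptor. Its response to CPSF1 knockdown was described here from 9 of the 27 RNA-seq libraries of the study, which were taken by cell line and treatment. The 9 libraries are 3 from cells with a control shRNA (CTRL sh), 3 with CPSF1 sh1 and 3 with CPSF1 sh2, and the other 18 came from LNCaP (9) and LNCaP95 (9) cells. All groups carried a lentiviral hairpin, so that the controls also went through infection and selection. 22Rv1 cells were selected in 2 rounds with puromycin at 2 μg/mL, expanded and seeded at 500000 cells per well, and RNA was taken after 72 h in RPMI medium with serum. The cells are stably infected pools in which CPSF1 mRNA was lowered and not removed, and each hairpin was compared with the same 3 control libraries. LNCaP cells were treated alike. LNCaP95 cells were selected with puromycin at 1 μg/mL and kept in medium without phenol red, so that line, selection and medium cannot be told apart there. The study asked which pathways depend on CPSF1 in prostate cancer cells. The description below goes by gene function, over 62 lists of genes that hold 2972 of the 11728 genes tested.

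CPSF1 encodes a large subunit of the cleavage and polyadenylation specificity factor, the complex that recognises the AAUAAA signal of nascent transcripts and cuts them so that a poly(A) tail can be added. Nearly all messenger RNAs of human cells end in this way. The replication-dependent histone messages are the exception, since they end after a conserved stem-loop and normally carry no poly(A) tail. The same complex, with other partners, takes part in that cut as well.

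Between 9599566 and 12167674 counts fell on genes in these libraries, and mitochondrial genes took 1.81 to 2.12% of them. CPSF1 sh1 replicate 3 stood apart. On the second principal component of the log2 levels, which held 15.6% of the variance, it lay at -19.7 where the other 8 libraries lay between -3.24 and 6.22. Its chi-square per degree of freedom against its CPSF1 sh1 partners was 8.0 and 4.95, while the other pairs of replicates gave 1.38 to 2.05. Results are therefore given with and without it where that changes them. All 10 luminal prostate markers were expressed, with a summed level of 3920 to 3940 CPM (counts scaled to library size) with CTRL sh and 3790 to 4140 CPM with CPSF1 sh. The 4 endothelial markers in the table summed to at most 0.877 CPM in any library, and the immune markers to 2.43 to 2.84 CPM with CTRL sh and 4.38 to 9.25 CPM with CPSF1 sh, with the T and B cell genes CD3D, CD3E and MS4A1 at 0 counts in every library. Among basal markers, TP63, KRT5 and KRT14 stayed below 1 CPM in every library, but the keratin gene KRT15 had 1.65 ± 0.699 CPM (SD, n = 3) with CTRL sh and 15.8 ± 8.74 CPM (n = 6) with CPSF1 sh. KRT15 fell below the expression filter described next, so that it has no test here.

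Genes above 2 CPM in all 9 libraries were tested with edgeR's quasi-likelihood test, the 6 CPSF1 sh libraries against the 3 CTRL sh libraries, and a gene was called at an adjusted p-value below 0.05. Levels are CPM scaled by the trimmed mean of M-values (TMM), and fold changes are of CPSF1 sh over CTRL sh on the log2 scale. Of the genes tested, 12.7% were called higher and 14.3% lower, and the median log2 fold change of all genes was -0.0024. These shares are the background for every list below. Because the samples are bulk RNA from pools, fewer cells with a message and less message per cell cannot be told apart.

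The targeted gene was lower in every knockdown library. CPSF1 (chr8:145618444-145634753 of GRCh37, minus strand) had 189, 182 and 182 CPM with CTRL sh, 111, 135 and 137 CPM with CPSF1 sh1 and 126, 141 and 133 CPM with CPSF1 sh2. The groups did not overlap, and the fall with the 2 hairpins did not differ at the threshold (log2 fold change -0.50, standard error 0.0625, adjusted p = 9.66e-05, with -0.53 for sh1 and -0.47 for sh2, difference 0.067, adjusted p = 0.578).

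The largest rises, falls, gains and losses below were taken from called genes only. A further condition was that all 6 CPSF1 sh libraries lay on the same side of the 3 CTRL sh libraries. Separation of these genes is thus part of their choice. Among them, the largest rises were in genes that were low in control cells. LAG3, an inhibitory receptor best known from T cells, had 2.39, 2.66 and 2.33 CPM with CTRL sh, 13.8, 19.4 and 17.9 CPM with CPSF1 sh1 and 17.8, 23.8 and 21.9 CPM with CPSF1 sh2. Its log2 fold change was 2.95 (standard error 0.193, adjusted p = 8.08e-07). NNMT, the nicotinamide N-methyltransferase, went from 2.68 ± 0.445 CPM (SD, n = 3) with CTRL sh to 13.8 ± 1.71 CPM (n = 6) with CPSF1 sh (log2 fold change 2.37, standard error 0.157, adjusted p = 8.08e-07). AOC3, a copper amine oxidase of the cell surface, went from 2.93 to 14.2 CPM on average, and REG4, a secreted lectin of the regenerating family, from 3.78 to 17.6 CPM. The next largest rises were KCNAB3, a potassium channel beta subunit (4.34 to 18.5 CPM), the linker histone gene HIST1H1C (8.25 to 32.2 CPM), the methyltransferase gene METTL12 (9.58 to 34.1 CPM), the basement membrane collagen gene COL4A6 (2.56 to 9.0 CPM), the core histone gene HIST2H2BE (14.6 to 49.6 CPM) and MAP6D1 (2.84 to 9.59 CPM), with log2 fold changes from 2.09 down to 1.77.

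Of these 10 genes, 6 had another gene on the same strand whose end lay within 10 kb upstream of their start, or which overlapped the start, in the coordinates of the count table. Over all tested genes with a unique position the share was 23.4%, and over all genes called higher it was 25.6% and lower 19.4%, so that the share among these 10, picked as the most extreme, is a description of them alone. LAG3 starts 1569 bases after PTMS, MAP6D1 3791 bases after PARL, NNMT 7111 bases after ZBTB16 and AOC3 477 bases after AOC2. HIST2H2BE starts 787 bases after HIST2H2AB, while the start of KCNAB3 lies inside RP11-1099M24.7. A gene that overlapped the start was taken before any other. Genes further upstream of KCNAB3, and their levels, were therefore not looked at. With CTRL sh these upstream genes differed in level, with 0.0902 CPM for HIST2H2AB, 0 CPM for RP11-1099M24.7, 69.7 CPM for PARL and 50.6 CPM for ZBTB16. PTMS was a well expressed gene (357 to 312 CPM) with a log2 fold change of -0.20, which did not pass the test (adjusted p = 0.0949). AOC2 rose together with AOC3 (6.24 to 21 CPM, log2 fold change 1.74, adjusted p = 9.98e-06). The counts are of exons of named genes, and whether reads at these starts came from transcripts that began upstream was not tested.

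The largest fall was in NDUFA4L2, a hypoxia-induced mitochondrial protein that lowers complex I activity, which had 47.4, 58.8 and 47.4 CPM with CTRL sh, 13.8, 18.2 and 28.1 CPM with CPSF1 sh1 and 9.04, 10.7 and 11.7 CPM with CPSF1 sh2. NMB, the neuropeptide neuromedin B, fell from 75.6 ± 2.92 CPM (SD, n = 3) with CTRL sh to 23.4 ± 7.55 CPM (n = 6) with CPSF1 sh (log2 fold change -1.69, standard error 0.169, adjusted p = 1.94e-05). SUSD2, a membrane protein of epithelia, fell from 86.4 to 33 CPM, and coagulation factor V (F5) from 8.35 to 3.38 CPM. AKR1C3, which reduces androgen and prostaglandin precursors, had 57.5, 65 and 64.7 CPM with CTRL sh, 34.8, 33.2 and 33.8 CPM with CPSF1 sh1 and 16.8, 15.6 and 18.9 CPM with CPSF1 sh2. All CPSF1 sh2 libraries of AKR1C3 lay below its CPSF1 sh1 libraries. The other large falls were in the reductase gene DHRS2 (82.9 to 34.1 CPM), PDZD7 (14.4 to 6.24 CPM), the synaptic cadherin gene CLSTN2 (9.61 to 4.15 CPM), the homeobox gene HOXA10 (8.93 to 3.84 CPM) and the slow troponin gene TNNT1 (70.6 to 30.5 CPM). Among the 10 genes with the largest falls, 5 had a same-strand gene within 10 kb upstream (for NDUFA4L2, STAC3 at 2738 bases; for SUSD2, CABIN1 at 2631; for F5, SELP at 2261; for HOXA10, HOXA11 at 1249; for TNNT1, TNNI3 at 2416).

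**Figure D1:**
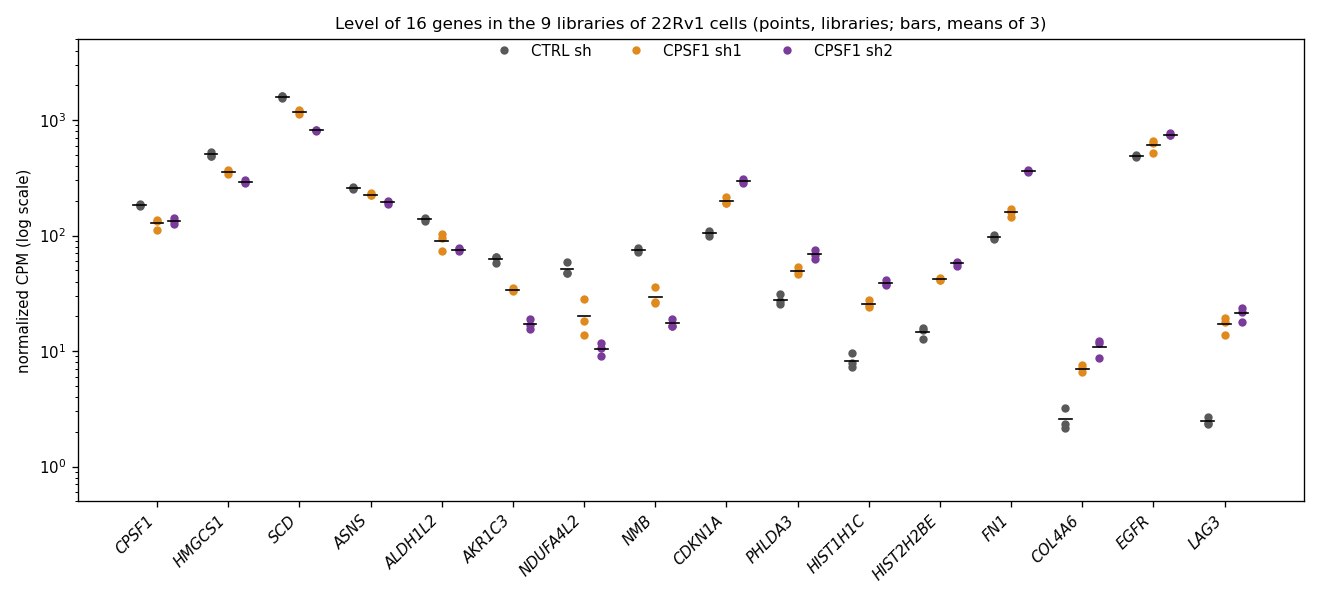
Normalized CPM on a log axis of 16 genes in the 9 libraries of 22Rv1 cells, with points for libraries, bars for means of 3, and grey, orange and purple for CTRL sh, CPSF1 sh1 and CPSF1 sh2. For LAG3 the 6 knockdown libraries sit far above the 3 controls, and for most of the other genes CPSF1 sh2 lies further from the controls than CPSF1 sh1.

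Ranked by the change in mean level and not by the ratio, other genes came first. The largest gains in mean level were in the growth factor receptor gene EGFR (489 to 676 CPM), the chaperone gene HSP90AB1 (1325 to 1507 CPM), the initiation factor scaffold gene EIF4G1 (818 to 991 CPM) and RCC1, the nucleotide exchange factor of RAN (204 to 374 CPM). The actin regulator gene FLII (379 to 547 CPM), the sialyltransferase gene ST3GAL1 (245 to 409.8 CPM) and the fibronectin gene FN1 (97.1 to 260.0 CPM) came next. The largest losses were in stearoyl-CoA desaturase, SCD (1595 to 1000.1 CPM), the fatty aldehyde dehydrogenase gene ALDH3A2 (1082 to 661 CPM) and the imprinted gene PEG10 (1317 to 1010.1 CPM). They were followed by IQSEC2 (781 to 568 CPM), the elongation factor gene EEF2 (1946 to 1735 CPM), ZBTB10 (854 to 646 CPM), squalene synthase, FDFT1 (638 to 435 CPM) and the ribosomal protein gene RPL3 (1270.4 to 1068 CPM). Every one of these 15 genes, of the 20 genes above and CPSF1 kept its call without CPSF1 sh1 replicate 3. Apart from CPSF1, these genes were chosen as called and separated in the same libraries, so this is no independent support.

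**Figure D2:**
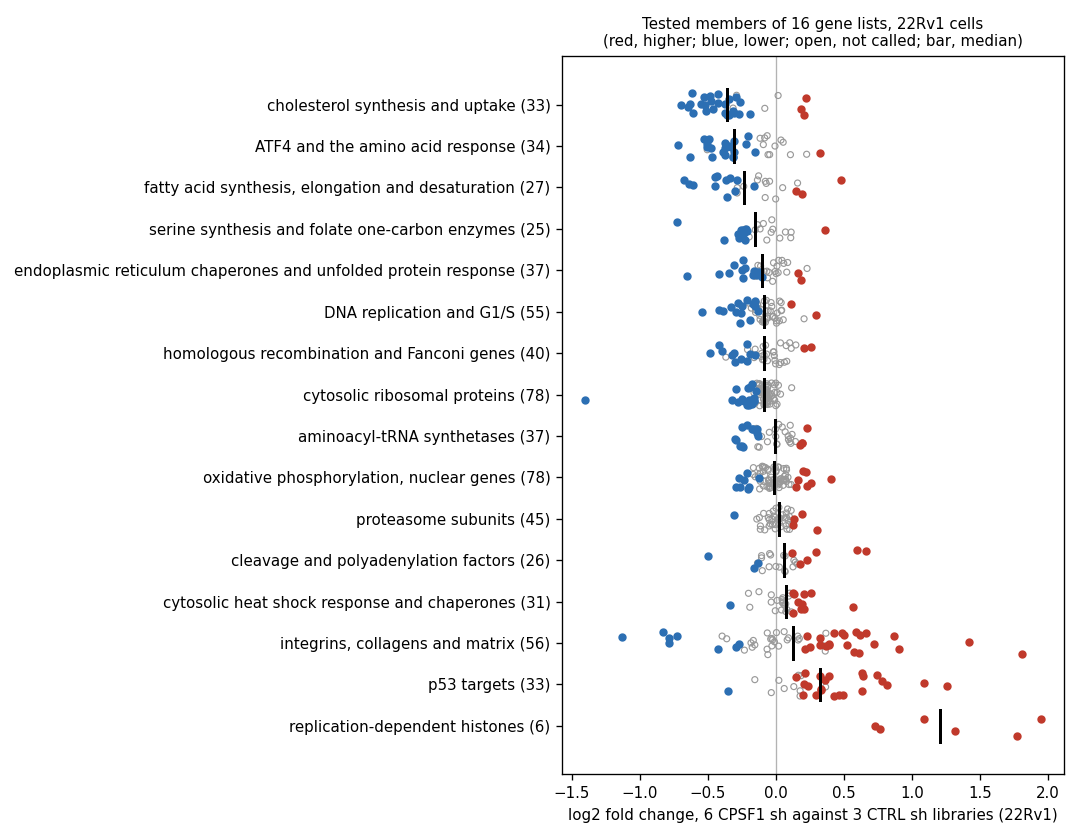
Log2 fold change of 6 CPSF1 sh against 3 CTRL sh libraries for each tested member of 16 gene lists, with the number tested in parentheses. Red points were called higher, blue points lower, open points were not called, and the bar is the list median, which runs from -0.36 for cholesterol synthesis and uptake to 1.20 for replication-dependent histones.

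Genes of cholesterol synthesis and uptake fell together. Cells make cholesterol from acetyl-CoA by way of mevalonate and squalene, and when sterol is low the membrane-bound factor SREBP2, encoded by SREBF2, is released by its escort SCAP and proteases and switches on the whole route. Of 33 members, all of which were tested, 26 fell and 3 rose, with a median log2 fold change of -0.36, and in 23 of them all 6 knockdown libraries lay below all 3 controls, against 15.2% of all genes tested. HMGCS1, which makes the precursor of mevalonate, had 493, 490.1 and 531 CPM with CTRL sh, 372, 361 and 343 CPM with CPSF1 sh1 and 292, 284 and 300.01 CPM with CPSF1 sh2. Its groups were ordered without overlap, CTRL sh above CPSF1 sh1 above CPSF1 sh2 (log2 fold change -0.63, standard error 0.0776, adjusted p = 8.69e-05). The falls ran along the route. The isomerase gene IDI1 went from 207 to 145 CPM, and the decarboxylase gene MVD from 116 to 80.3 CPM. After squalene, CYP51A1 went from 46.8 to 28.9 CPM, MSMO1 from 161 to 115 CPM and DHCR7 from 203 to 141 CPM. SQLE, which oxidises squalene, went from 143 to 107 CPM. STARD4, which carries sterol between membranes, fell from 75.9 to 48.4 CPM, and NPC2, which passes it out of lysosomes, from 70.1 to 55.2 CPM. INSIG1, a sterol-induced brake on SREBP release that is itself an SREBP target, had the fourth largest fall of the list (257 to 168 CPM, log2 fold change -0.62, adjusted p = 0.00145). SREBF2 itself fell from 559.7 to 449.6 CPM. The members that rose were SCAP (185 to 210.3 CPM), the protease gene MBTPS1 (156 to 182 CPM) and GGPS1, which draws on the route for prenyl groups (119 to 138 CPM). Without CPSF1 sh1 replicate 3, 28 members were lower and 3 higher, where the background was 20.2% lower and 18.9% higher.

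Fatty acid synthesis followed the same direction with fewer members. Of 27 tested members of 34, 12 fell and 3 rose, with a median of -0.24. SCD, which puts the first double bond into stearate and was the most abundant message of the list, had 1555, 1609.6 and 1621 CPM with CTRL sh, 1232, 1192 and 1118 CPM with CPSF1 sh1 and 826, 808 and 824 CPM with CPSF1 sh2 (log2 fold change -0.67, standard error 0.122, adjusted p = 0.00126). MID1IP1, an activator of acetyl-CoA carboxylase, fell from 112 to 72 CPM. The desaturase gene FADS1 went from 303 to 199 CPM, the elongase genes ELOVL6 from 238 to 177 CPM and ELOVL5 from 293 to 229 CPM, and the acetyl-CoA synthetase gene ACSS2 from 69.8 to 57.4 CPM. SREBF1, which encodes the SREBP that drives this route, fell from 373 to 274 CPM. The fatty acid synthase gene FASN had 1464 CPM with CTRL sh and 1341 CPM with CPSF1 sh (log2 fold change -0.13, adjusted p = 0.0746). The members that rose were ELOVL2 (18.5 to 25.6 CPM), OXSM (33.5 to 38.3 CPM) and ACSL3 (237 to 263 CPM). Fatty acid oxidation, the opposite route, had 5 members higher and 4 lower of 39, with a median of 0.036, and without CPSF1 sh1 replicate 3 the counts turned to 5 higher and 10 lower.

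Promoters of these genes, 250 bases before to 50 bases after the gene start, were taken from RefSeq (GRCh38.p14), which had 1 for 82.8% of the tested genes. They were searched on both strands for the sterol regulatory element in the form TCACNCCAC. It stood in 1 of 25 promoters of the cholesterol list and in 1 of 24 of the fatty acid list, against 1.11% of the promoters of all tested genes and 1.15% of all RefSeq promoters. Both genes that hold it fell, but 18 of the other 24 promoters of the cholesterol list also belonged to genes that fell. The windows are shown with the element in capitals, in the direction of the gene. That of SREBF2 lies on the plus strand at chr22:41832962-41832990, and that of MID1IP1, where the element is on the opposite strand, at chrX:38801409-38801437 (plus strand).
SREBF2: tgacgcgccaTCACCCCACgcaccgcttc
MID1IP1: aggggcggtgGTGGGGTGAttccaagggc

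The amino acid response was the other large metabolic group that fell. ATF4 is a transcription factor whose translation rises when amino acids run short or the endoplasmic reticulum is stressed, and its targets import and make amino acids and charge transfer RNAs. All 34 members were tested, and 21 fell and 1 rose (median -0.31). ATF4 itself went from 412 ± 8.49 CPM (SD, n = 3) with CTRL sh to 332 ± 20.1 CPM (n = 6) with CPSF1 sh (log2 fold change -0.31, standard error 0.0485, adjusted p = 0.000437). ASNS, asparagine synthetase, had 259.8, 254 and 266 CPM with CTRL sh, 223, 223 and 232 CPM with CPSF1 sh1 and 194, 189.6 and 198 CPM with CPSF1 sh2, with no overlap between groups. Among transporters, SLC1A5, which takes up glutamine, fell from 253 to 182 CPM, SLC1A4 from 68.1 to 47.3 CPM, SLC7A1, which takes up arginine and lysine, from 261 to 210.3 CPM, and SLC7A11, which exchanges cystine for glutamate, from 94.6 to 75.1 CPM. The partner factors CEBPB (25 to 17.9 CPM) and CEBPG (146 to 112 CPM) fell, as did TRIB3, a pseudokinase that restrains AKT (113 to 87.4 CPM), the mTOR inhibitor gene DDIT4 (58.2 to 42.1 CPM) and PCK2 (99.2 to 70.0 CPM). SESN2 rose (36.8 to 46.1 CPM), and it is also a member of the p53 target list. Without CPSF1 sh1 replicate 3 the counts were 23 lower and 2 higher.

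Enzymes that make serine and glycine and pass their carbon to folate changed in the same direction in smaller number. Of 25 tested members of 27, 10 fell and 1 rose (median -0.15). ALDH1L2, the mitochondrial formyltetrahydrofolate dehydrogenase, had 142, 133 and 138 CPM with CTRL sh, 104, 94.6 and 73.3 CPM with CPSF1 sh1 and 73.1, 75.8 and 78.3 CPM with CPSF1 sh2, so that every knockdown library lay below the controls (log2 fold change -0.73, standard error 0.0955, adjusted p = 0.000133). All 3 enzymes of serine synthesis fell, PHGDH from 204 to 156 CPM, PSAT1 from 266 to 228 CPM and PSPH from 60.4 to 51.7 CPM. SHMT2, which splits serine in mitochondria, fell from 595 to 506 CPM. The glycine cleavage gene AMT rose (12.7 to 16.5 CPM).

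Of 37 aminoacyl-tRNA synthetase genes, 12 fell and 4 rose, with a median of -0.0039 (13 and 9 without CPSF1 sh1 replicate 3). SARS had the largest fall (179.9 to 146 CPM, log2 fold change -0.30), and VARS2 the largest rise (78 to 91.5 CPM, 0.23). Their promoters were searched on both strands for the amino acid response element in the form TGATGNAA. It stood in 7 of 27 synthetase promoters with a RefSeq entry (25.9%) and in 6 of 30 of the ATF4 list (20.0%), against 1.53% of the promoters of all tested genes and 3.67% of all RefSeq promoters. Some ATF4 targets are known through this element, so its frequency in that list is no finding. Of the 7 synthetase genes with the element 6 were called lower, with a median log2 fold change of -0.14, and of the 20 without it 1 was called lower (median 0.028). The other 5 synthetase genes that fell, among them SARS, DARS, YARS and LARS, were not matched to a promoter and are in neither count. These counts also do not separate synthetases of the cytosol from those of mitochondria. Whether the element or that difference goes with the call was not tested. In the ATF4 list the element did not go with the call, since 3 of the 6 genes with it and 14 of the 24 without it were lower. The windows of the 7 synthetase genes are shown because nearly all of them belong to genes that fell. The element is in capitals, on the gene's strand in YARS2 and NARS and on the opposite strand in the other 5. In GRCh38.p14 they lie at chr16:70289676-70289703 (AARS, minus), chr11:3057408-3057435 (CARS, minus), chr9:92293693-92293720 (IARS, minus), chr12:57488054-57488081 (MARS, plus), chr5:33440957-33440984 (TARS, plus), chr12:32756077-32756104 (YARS2, minus) and chr18:57621805-57621832 (NARS, minus), and NARS is the gene that did not pass the test (log2 fold change 0.022, adjusted p = 0.717).
AARS: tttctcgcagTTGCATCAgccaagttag
CARS: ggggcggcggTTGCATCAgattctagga
IARS: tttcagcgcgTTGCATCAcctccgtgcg
MARS: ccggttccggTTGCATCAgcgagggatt
TARS: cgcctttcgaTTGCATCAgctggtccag
YARS2: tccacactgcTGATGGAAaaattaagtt
NARS: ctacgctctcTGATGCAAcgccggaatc

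Carriers of other solutes also fell more often than they rose. Of 189 tested SLC genes of 332 in the table, 47 fell and 19 rose (median -0.058), and without CPSF1 sh1 replicate 3, 59 were lower and 31 higher. The lactate exporter gene SLC16A3 fell from 38.5 to 18 CPM, the glutamate transporter gene SLC1A1 from 27.9 to 15.3 CPM, the choline transporter gene SLC44A4 from 44.1 to 26.3 CPM and SLC40A1, the iron exporter ferroportin, from 35.7 to 21.9 CPM. SLC30A4, a zinc transporter that moves zinc into vesicles, rose from 5.64 to 12.9 CPM and the zinc importer gene SLC39A10 from 86.9 to 138 CPM. The metallothionein genes MT1G and MT1X, which bind zinc, rose from 6.82 to 12.6 CPM and 8.09 to 13.7 CPM, although metallothioneins are near-identical copies among which reads can be misassigned. In the list of metallothioneins and zinc transporters 6 rose and 3 fell of 22 (8 and 5 without that library).

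**Figure D3:**
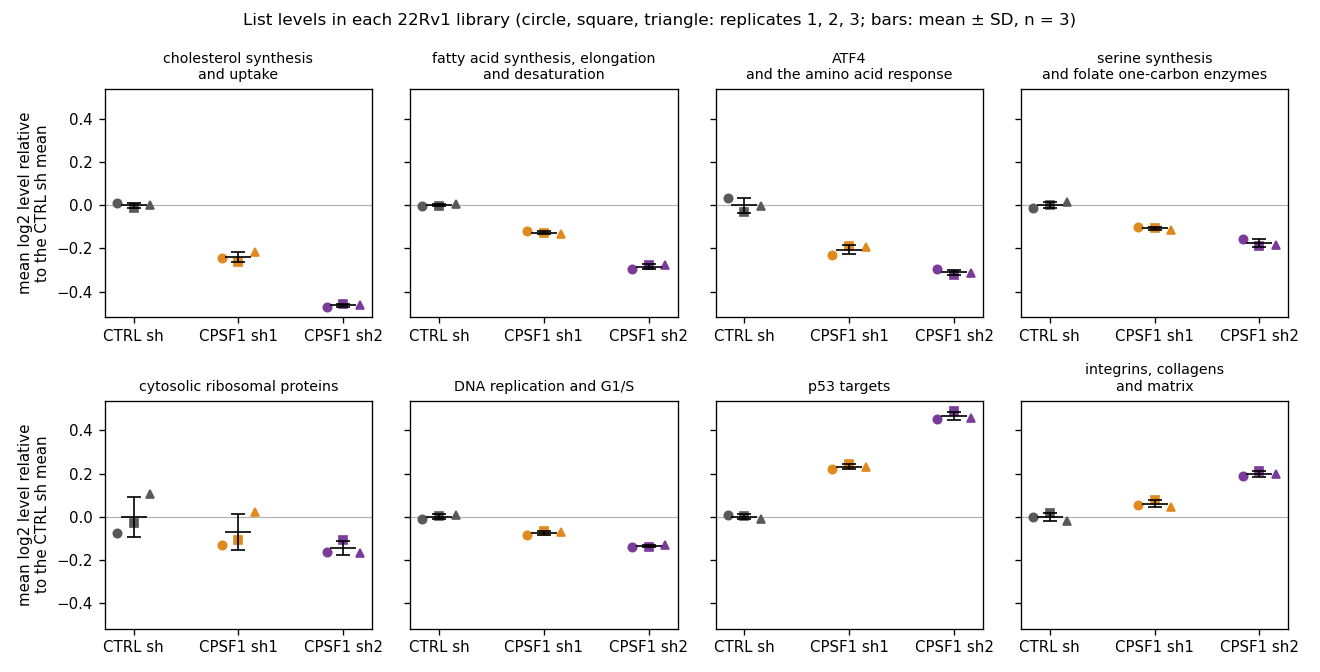
Mean log2 level of the tested members of 8 lists in each library, as a difference from the average of the CTRL sh libraries, with circles, squares and triangles for replicates 1, 2 and 3 and bars for the mean and SD of 3. In the cholesterol list the controls sit between -0.013 and 0.012 and the knockdown libraries between -0.47 and -0.21, while in the ribosomal protein list the groups overlap.

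Most of the listed targets of p53 rose. The p53 protein answers DNA damage and nucleolar or transcriptional stress by switching on genes that stop the cell cycle, repair DNA and prepare apoptosis. Of 33 tested members of 35, 22 rose and 1 fell, with a median of 0.32, and in 19 all 6 knockdown libraries lay above all 3 controls, against 13% of all genes tested. CDKN1A (chr6:36644305-36655116), which encodes the cyclin-dependent kinase inhibitor p21, had 109, 98.8 and 106 CPM with CTRL sh, 191, 193 and 216 CPM with CPSF1 sh1 and 299.8, 310.0 and 286 CPM with CPSF1 sh2. The 3 groups did not overlap (log2 fold change 1.26, standard error 0.153, adjusted p = 8.25e-05). PHLDA3, a repressor of AKT signalling, rose from 27.8 ± 2.82 CPM (SD, n = 3) with CTRL sh to 59.2 ± 11.4 CPM (n = 6) with CPSF1 sh (log2 fold change 1.09, standard error 0.143, adjusted p = 0.000139). GDF15, a secreted stress cytokine, went from 29 to 51.3 CPM, the antiproliferative gene BTG2 from 33.8 to 58.3 CPM and the mTORC1 inhibitor gene SESN1 from 21.3 to 35.7 CPM. The repair genes DDB2 (43.7 to 67.9 CPM), XPC (106 to 134 CPM) and POLH (26.4 to 37.1 CPM) rose, and so did the apoptosis gene BAX (70.7 to 97.7 CPM), and MDM2 (189.8 to 244 CPM) and MDM4 (68.8 to 84.5 CPM), which restrain p53. The member that fell was CCNG1 (167 to 130.5 CPM). Without CPSF1 sh1 replicate 3, 25 members rose and 1 fell. In the BCL2 family, BAX, BID and BBC3 on the death side and BCL2L1 on the survival side rose, and the mitophagy genes BNIP3 (91.6 to 53.1 CPM) and BNIP3L (138 to 95.6 CPM) fell.

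Histone genes had the largest median of the 62 lists in size. Of 71 replication-dependent histone genes in the table, 6 passed the expression filter, and all 6 rose, with a median of 1.20. The linker histone gene HIST1H1C had 9.56, 7.89 and 7.30 CPM with CTRL sh, 23.9, 24.9 and 27.7 CPM with CPSF1 sh1 and 38, 41.1 and 37.5 CPM with CPSF1 sh2 (log2 fold change 1.95, standard error 0.197, adjusted p = 2.07e-05). HIST2H2BE had 12.7, 15.9 and 15.2 CPM with CTRL sh, 43, 41.2 and 41.2 CPM with CPSF1 sh1 and 54.8, 59.5 and 58.1 CPM with CPSF1 sh2 (log2 fold change 1.77, standard error 0.147, adjusted p = 6.18e-06). In both genes, and in the other 4, every knockdown library lay above every control library. HIST1H2BK went from 9.73 to 24.4 CPM, HIST1H2AC from 4.75 to 10.0 CPM, HIST3H2A from 11.9 to 20.3 CPM and HIST1H2AG from 3.92 to 6.53 CPM. The summed level of the 6 was 51.2 to 56.5 CPM in the control libraries, 116 to 125 CPM with CPSF1 sh1 and 157 to 178 CPM with CPSF1 sh2.

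The other 65 histone genes were below the filter, and 10 of them had no count in any library. Their summed level showed the same order, with 23.1 to 26.2 CPM (224 to 318 counts) in the controls, 44.2 to 45.8 CPM with CPSF1 sh1 and 61.7 to 67.0 CPM with CPSF1 sh2. In a fit with no filter, which keeps every gene with a count, 55 of them were tested. Of these, 15 were called higher and 1 lower (background 10.8% higher and 10.9% lower). A fold change above 0 was seen in 46, with a median of 1.23, for which no background was taken. More genes had counts in each knockdown library (15722 to 15961) than in the controls (15328 to 15541). A gene counted only with CPSF1 sh also enters this fit, so the 46 and the median describe these genes alone. Histone genes are close copies of each other, so that reads can be shared between them. The library kit selects messages by their poly(A) tail. More tailed histone message and more histone message of all kinds cannot be told apart in such libraries. In the same cells, SLBP, the protein that binds the histone stem-loop, fell from 203 to 182 CPM (log2 fold change -0.15, adjusted p = 0.0204).

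The stem-loop itself was found in the GRCh37 genome for all 6 tested histone genes and for 70 of the 71. It is shown in capitals with 5 bases on each side, in the direction of the gene. Its place against the annotated gene end differs between them. The annotation ends 4 bases after the loop in HIST1H1C and 5 bases after it in HIST3H2A, and in the other 4 it runs on for 1728 (HIST2H2BE), 1761 (HIST1H2AG), 8072 (HIST1H2BK) and 14432 bases (HIST1H2AC, introns included), with at least 1 AATAAA signal in that stretch. In HIST1H1C the first AATAAA lies 13 bases after the loop, beyond the annotated end. Both kinds of gene rose. The windows lie at chr6:26055967-26055992 (HIST1H1C, minus strand), chr1:149857733-149857758 (HIST2H2BE, minus), chr6:27114140-27114165 (HIST1H2BK, minus), chr6:26124892-26124917 (HIST1H2AC, plus), chr1:228645065-228645090 (HIST3H2A, minus) and chr6:27101289-27101314 (HIST1H2AG, plus).
HIST1H1C: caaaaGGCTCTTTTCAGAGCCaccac
HIST2H2BE: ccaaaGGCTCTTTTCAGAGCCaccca
HIST1H2BK: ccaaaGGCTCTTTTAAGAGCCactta
HIST1H2AC: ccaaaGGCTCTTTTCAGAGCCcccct
HIST3H2A: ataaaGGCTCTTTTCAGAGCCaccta
HIST1H2AG: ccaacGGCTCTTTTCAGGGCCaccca

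Cell cycle genes moved less. Of 55 tested genes of DNA replication and the G1/S step, 15 fell and 2 rose, with a median of -0.088. POLE4, a small subunit of DNA polymerase epsilon, fell from 26.7 to 18.2 CPM, the helicase subunit gene MCM5 from 242 to 181 CPM, GINS2 from 84.1 to 64.3 CPM and the clamp loader gene RFC3 from 99.4 to 79.2 CPM. Without CPSF1 sh1 replicate 3, 23 members were lower. An E2F site, written TTTNCCGC, stood on either strand in 14 of 48 promoters of this list (29.2%), against 5.33% of the promoters of all tested genes and 3.30% of all RefSeq promoters, and 8 of these 14 genes were called lower against 6 of the 34 without it. A second form, TTTNGCGC, stood in 17 of the 48 (35.4%, against 3.03% of tested genes), and 4 of these 17 were called lower against 10 of the 31 without it. The ribonucleotide reductase genes RRM1 (361 to 289.9 CPM) and RRM2 (297 to 230.5 CPM) fell as well. In the list of homologous recombination and Fanconi genes, 11 of 40 fell and 2 rose, with BRCA1 going from 199 to 161 CPM, CHEK1 from 84.6 to 64.2 CPM and ATM from 69.7 to 55.6 CPM. Among 64 genes of G2/M and mitosis, 13 fell and 3 rose, a share lower of 20.3%, and without that library, 16 were lower and 8 higher. DLGAP5 (67.3 to 47 CPM) and CCNB2 (118 to 87 CPM) fell and the mitotic factor gene FOXM1 rose (315 to 368 CPM). HMGB2, a chromatin protein of dividing cells, fell from 523 to 340.2 CPM.

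Messages of protein synthesis had mostly small changes, more of them down. Of 78 cytosolic ribosomal protein genes, 18 were called lower and 0 higher, with a median of -0.087. Single members, called or not, ranged from -1.40 to 0.12. This list varied more between replicates than the cholesterol list did. Its mean log2 level ranged from -0.076 to 0.10 in the 3 controls and from -0.17 to 0.023 in the 6 knockdown libraries, so that the groups overlapped. CPSF1 sh1 replicate 3 had the highest of the 6, and without it 45 members were called lower. RPL3 fell from 1270.4 to 1068 CPM, RPL4 from 1139.6 to 987 CPM and RPL13A from 965 to 772 CPM. Among translation factors, EEF2 (1946 to 1735 CPM), TPT1 (821 to 656 CPM) and EIF4EBP1 (86.6 to 65.2 CPM) fell, and EIF4G1 (818 to 991 CPM) and EIF2B5 (116 to 138 CPM) rose. In mitochondrial ribosomal proteins 8 of 75 fell and 3 rose, but without CPSF1 sh1 replicate 3, 16 were lower (21.3%, against 20.2% of all genes).

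Chaperone genes that changed were mostly higher for the cytosol and mostly lower for the endoplasmic reticulum. Of 31 cytosolic heat shock and chaperone genes, 10 rose and 1 fell (median 0.073), and 11 and 3 without CPSF1 sh1 replicate 3. DNAJB6 had the largest rise (61.9 to 91.8 CPM, log2 fold change 0.57), HSPA4 rose from 237 to 283 CPM and HSP90AB1 from 1325 to 1507 CPM. HSPA1A, which has a near-identical neighbour, fell (30.4 to 24.1 CPM). Of 37 genes of endoplasmic reticulum folding and the unfolded protein response, 14 fell and 2 rose (median -0.10), and 15 and 4 without that library. The oxidase gene ERO1L fell from 64.1 to 40.8 CPM, HERPUD1 from 177 to 143 CPM and the main chaperone of this compartment, HSPA5, from 1141 to 1023 CPM. In the secretory pathway and its sugar enzymes, 20 of 71 fell and 3 rose (26 and 8 without it), with GALNT7 falling from 329.6 to 213 CPM.

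Matrix and adhesion genes changed in both directions, with more rises. Of 118 listed genes 56 were tested, 22 rose and 8 fell, and the median was 0.13. FN1, fibronectin, had 95, 102 and 94.3 CPM with CTRL sh, 169, 161 and 146 CPM with CPSF1 sh1 and 359, 373 and 352 CPM with CPSF1 sh2, a rise that was larger with CPSF1 sh2 (1.89) than with CPSF1 sh1 (0.71, difference 1.19, adjusted p = 3.28e-09). The basement membrane genes HSPG2 (4.62 to 8.71 CPM) and LAMB2 (131 to 176 CPM) and the collagen genes COL7A1 (81.6 to 126 CPM) and COL6A1 (27.3 to 41.7 CPM) rose. The collagen receptor gene ITGA1 fell from 43.4 to 19.8 CPM, versican, VCAN, from 22.1 to 12.4 CPM, and COL4A3 from 12.8 to 7.39 CPM, while COL4A6 of the same collagen family rose. Among 21 mesenchymal genes, 7 rose and 4 fell. The smooth muscle genes ACTA2 (6.01 to 12.6 CPM) and MYL9 (2.88 to 7.32 CPM) and vimentin, VIM (27.2 to 42.6 CPM), rose, and N-cadherin, CDH2 (17.6 to 9.94 CPM), fell. VIM and ACTA2 are also markers of fibroblasts and smooth muscle, whose 9 markers summed to 55.4 to 59.7 CPM with CTRL sh and 66.9 to 81.5 CPM with CPSF1 sh, with the fibroblast genes COL1A2 and PDGFRB under 1 CPM in every library and DES at 0.0925 CPM or less. LUM, lumican of fibroblast matrix and the third marker of this set that changed, fell from 10.3 to 4.86 CPM (log2 fold change -1.08). The part of such cells in these changes was not tested. Epithelial genes split evenly, with 10 higher and 10 lower of 43. The epithelial factor gene EHF fell from 119 to 63.8 CPM and claudin 4, CLDN4, from 224 to 171 CPM, and desmoplakin, DSP, rose from 213 to 271 CPM.

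Signalling genes did not move as blocks. In the receptor tyrosine kinase and MAPK list 8 rose and 4 fell of 39. EGFR had 491, 496 and 480.0 CPM with CTRL sh, 664, 628 and 521 CPM with CPSF1 sh1 and 736, 739 and 768 CPM with CPSF1 sh2 (log2 fold change 0.47, standard error 0.0931, adjusted p = 0.00233), EPHA2 rose from 29.1 to 45.4 CPM and the feedback inhibitor gene SPRY1 from 6.78 to 10.2 CPM. MAP2K1, the kinase MEK1, fell from 129 to 99.6 CPM. In the IGF axis the ligand gene IGF1 (12.9 to 23.3 CPM) and the receptor gene IGF1R (52.7 to 66.3 CPM) rose while the adaptors IRS1 (85.9 to 55 CPM) and IRS2 (143 to 109 CPM) fell. Among immediate early genes JUND (102 to 65.3 CPM) and JUN (74.1 to 59.1 CPM) fell and EGR1 rose (17.1 to 24.6 CPM). LIF, a cytokine of the interleukin-6 family, rose from 4.01 to 12.2 CPM. TGFB1 rose from 16.6 to 26.5 CPM, and LTBP4, which tethers latent TGF-beta to matrix, fell from 132 to 85.9 CPM. In the WNT and Notch list 5 rose and 5 fell of 38 (9 and 9 without CPSF1 sh1 replicate 3), among them the stem cell receptor gene LGR5 (35.1 to 22.5 CPM), which fell.

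Immune recognition genes that changed were lower in the class I list and split in the interferon list. HLA-C fell from 41.4 to 25.2 CPM, HLA-B from 9.45 to 6.70 CPM, the peptide trimming gene ERAP1 from 27.1 to 18.4 CPM and the proteasome activator gene PSME1 from 128 to 104 CPM, and no member of the class I list rose (4 lower of 15). HLA genes are similar to each other and vary between genomes, which can shift reads between them. Among 28 interferon-stimulated genes 6 fell and 2 rose, with IFI35 going from 7.25 to 4.16 CPM and HERC5 from 3.02 to 8.18 CPM.

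In the lists of steroid conversion and of glutathione and NRF2 targets, the aldo-keto reductase gene AKR1C3 had the largest fall (log2 fold change -1.29). AKR1C1 (15.5 to 9.19 CPM) and AKR1C2 (42 to 26.3 CPM) fell beside AKR1C3. The 3 genes are close paralogs, and reads can be shared between them. Of 19 tested genes of steroid conversion and glucuronidation 7 fell, and UGT2B11 rose from 3.34 to 8.54 CPM. Of 39 glutathione and NRF2 target genes 11 fell and 3 rose (median -0.055). MGST1 went from 139.9 to 94 CPM, TXNRD1 from 361 to 289 CPM and the mitochondrial superoxide dismutase gene SOD2 from 152 to 117 CPM. ALDH3A2, which oxidises fatty aldehydes, fell from 1082 ± 33 CPM (SD, n = 3) with CTRL sh to 661 ± 65.6 CPM (n = 6) with CPSF1 sh (log2 fold change -0.71, standard error 0.0661, adjusted p = 1.37e-05).

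RNA processing factors had few large changes. Of 26 cleavage and polyadenylation factors, 6 rose and 3 fell, CPSF1 included. CSTF3, a scaffold of the cleavage stimulation factor, had 86.9, 89.7 and 90.9 CPM with CTRL sh, 138, 138 and 127 CPM with CPSF1 sh1 and 145, 147 and 152 CPM with CPSF1 sh2 (log2 fold change 0.67, standard error 0.0566, adjusted p = 7.92e-06). PCF11, which helps cleavage and termination, had 76.9, 75.8 and 71 CPM with CTRL sh, 109, 112 and 99.2 CPM with CPSF1 sh1 and 122, 115 and 119 CPM with CPSF1 sh2 (log2 fold change 0.60, standard error 0.0630, adjusted p = 2.78e-05). The 6 knockdown libraries lay above the controls in both. The scaffold gene WDR33 (79 to 97 CPM), WDR82 (247 to 289 CPM), FIP1L1 (63.8 to 72.1 CPM) and SSU72 (130.3 to 141 CPM) rose by less, and CPSF4 (125 to 112 CPM) and NUDT21 (368 to 336 CPM) fell. In the core spliceosome 6 rose and 3 fell of 37, and among SR proteins and hnRNPs 3 rose and 2 fell of 34, which is under the background. The splicing regulator gene PTBP3 fell from 475 to 353 CPM. Integrator and elongation genes had 8 lower and 5 higher of 58 (9 and 10 without CPSF1 sh1 replicate 3), with INTS6 falling from 74.7 to 50.9 CPM. Zinc finger genes named ZNF rose more often than they fell, with 43 higher and 12 lower of 396, but their share higher, 10.9%, was below the background, and without that library, 74 were higher and 18 lower, where 18.9% of all genes were higher. ZNF25 had the largest rise (4.72 to 10.8 CPM).

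Several large lists had counts near the background or below it with all 9 libraries. Among nuclear genes of oxidative phosphorylation 7 rose and 8 fell of 78. This rested on CPSF1 sh1 replicate 3, since without it, 24 were lower (30.8%, against 20.2% of all genes) and 8 higher. In the proteasome 4 rose and 1 fell of 45, in lysosome and autophagy 10 and 7 of 68, in ribosome biogenesis 7 and 1 of 51, in peroxisome genes 3 and 3 of 33, and in ubiquitin ligases and deubiquitinases 34 and 30 of 236. Without that library ribosome biogenesis had 13 higher (25.5%, above the 18.9% of all genes) and 4 lower, the proteasome 3 lower, lysosome and autophagy 12 lower and peroxisome genes 5 higher. Of the 62 lists, 50 had a median within 0.1 of 0. Among neuronal genes 8 rose and 6 fell of 31, with BEX1 falling from 81.9 to 44.3 CPM and SRGAP3 rising from 11.2 to 22 CPM. The 7 neuroendocrine markers summed to 114 to 122 CPM with CTRL sh and 94 to 107 CPM with CPSF1 sh. SYP went from 75.1 to 61.3 CPM, CHGB from 35.1 to 32.3 CPM and CHGA from 6.16 to 4.46 CPM. Of the 3 markers tested 1 was called lower and 0 higher. The other 4, among them the factor genes INSM1 and NEUROD1, were below 1 CPM in every library.

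The hairpins gave the same genes different amounts of change. In a fit with 3 groups, 8.79% of genes were called higher and 11.1% lower with CPSF1 sh1, and 19.1 and 20.9% with CPSF1 sh2. Of the tested genes, 887 (7.56%) were called higher with each hairpin, 1120 (9.55%) lower with each, and 8 (0.0682%) in opposite directions. These 2 comparisons share their control libraries. Tested against each other, CPSF1 sh2 was above CPSF1 sh1 in 5.47% of genes and below it in 5.85%. In the cholesterol list CPSF1 sh2 was lower than CPSF1 sh1 in 22 of 33 genes and higher in 0, with medians against CTRL sh of -0.26 for sh1 and -0.51 for sh2. In the fatty acid synthesis list it was lower in 9 of 27. In the p53 target list CPSF1 sh2 was higher in 14 of 33 (medians 0.21 and 0.40), in the histones in 4 of 6, and in the matrix list in 17 of 56 with 3 lower. For INSIG1 the change was -0.39 for sh1 against -0.88 for sh2, a difference of -0.49 (adjusted p = 4.46e-06). CPSF1 mRNA itself did not differ between the hairpins at the threshold, as given above.

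**Figure D4:**
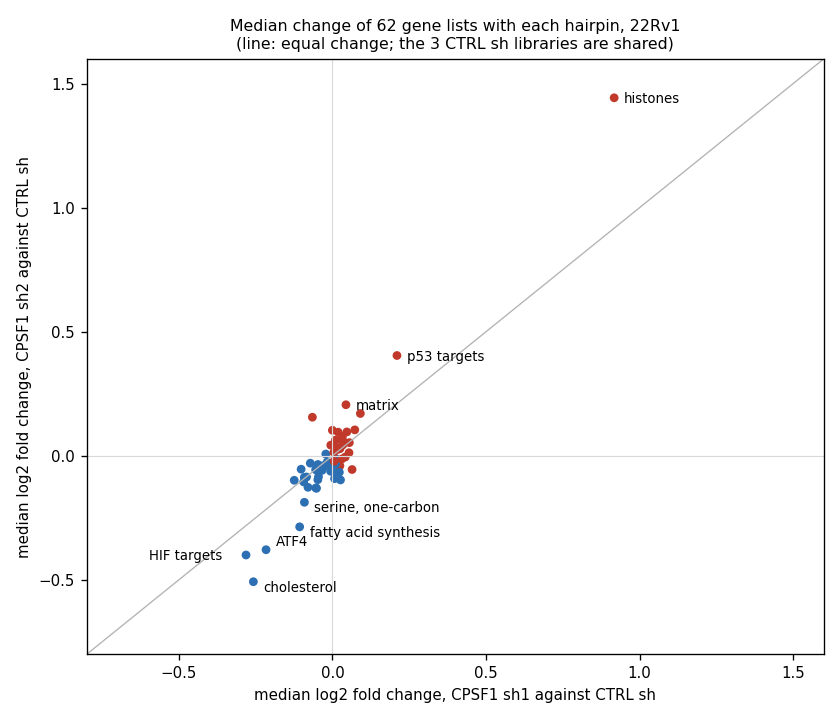
Median log2 fold change of 62 gene lists against CTRL sh, with CPSF1 sh1 on the x axis and CPSF1 sh2 on the y axis, where red and blue points have medians above and below 0 in the pooled comparison. Cholesterol synthesis, at -0.26 and -0.51, and p53 targets, at 0.21 and 0.40, lie further from 0 with CPSF1 sh2, and most lists sit near the origin.

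Whether these programmes answered differently from those of the other 2 lines was tested as an interaction in a fit of all 27 libraries. Among 10317 genes above 2 CPM in every library, the effect of the knockdown in 22Rv1 was higher than in LNCaP for 20.4% and lower for 20.0%, and higher than in LNCaP95 for 26.6% and lower for 27.1%. Cholesterol genes set 22Rv1 apart from LNCaP, where the list had a median of 0.14 against -0.35 in 22Rv1, and 18 of 31 genes had the lower effect in 22Rv1 and 1 the higher. HMGCS1 changed by -0.63 in 22Rv1, 0.22 in LNCaP (adjusted p of the difference 5.41e-06) and -0.56 in LNCaP95 (adjusted p = 0.64). Against LNCaP95, whose median was -0.37, 9 genes had the lower and 11 the higher effect in 22Rv1, and without 22Rv1 CPSF1 sh1 replicate 3 the balance turned to 12 lower and 8 higher. Targets of p53 set 22Rv1 apart from LNCaP95. Their median was 0.33 in 22Rv1, 0.36 in LNCaP and -0.011 in LNCaP95, and the effect in 22Rv1 exceeded that in LNCaP95 for 22 of 32 genes. CDKN1A changed by 1.26 in 22Rv1, 1.52 in LNCaP and 0.23 in LNCaP95, a difference from LNCaP95 with an adjusted p of 2.99e-06. All 6 histone genes exceeded LNCaP95 too (median -0.16 there), and none differed from LNCaP at the threshold (median 1.08).

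DNA replication genes had a median of -0.086 in 22Rv1 and 0.47 in LNCaP95, and 48 of 55 had the lower effect in 22Rv1. The ATF4 list had a median of -0.31 in 22Rv1 and -0.71 in LNCaP95, with the higher effect in 22Rv1 for 20 of 34 genes and the lower for 4. It had a median of -0.28 in LNCaP, against which 4 genes were higher and 3 lower. EGFR rose in 22Rv1 and changed by -1.03 in LNCaP and -0.81 in LNCaP95 (adjusted p of the differences 1.95e-08 and 7.17e-08). CSTF3 rose by less in 22Rv1 (0.67) than in LNCaP (1.06, adjusted p = 0.0011) and LNCaP95 (1.37, adjusted p = 6.54e-07). The fall of CPSF1 mRNA was smaller in 22Rv1 than in LNCaP95 by 0.39 (adjusted p = 0.00255). Without CPSF1 sh1 replicate 3 of 22Rv1 the counts were 19 lower for cholesterol genes against LNCaP, and 22 higher for p53 targets, 6 higher for histones and 48 lower for replication genes against LNCaP95. The background in that fit was 22.0% higher and 21.4% lower against LNCaP and 27.3% higher and 28.1% lower against LNCaP95.

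**Figure D5:**
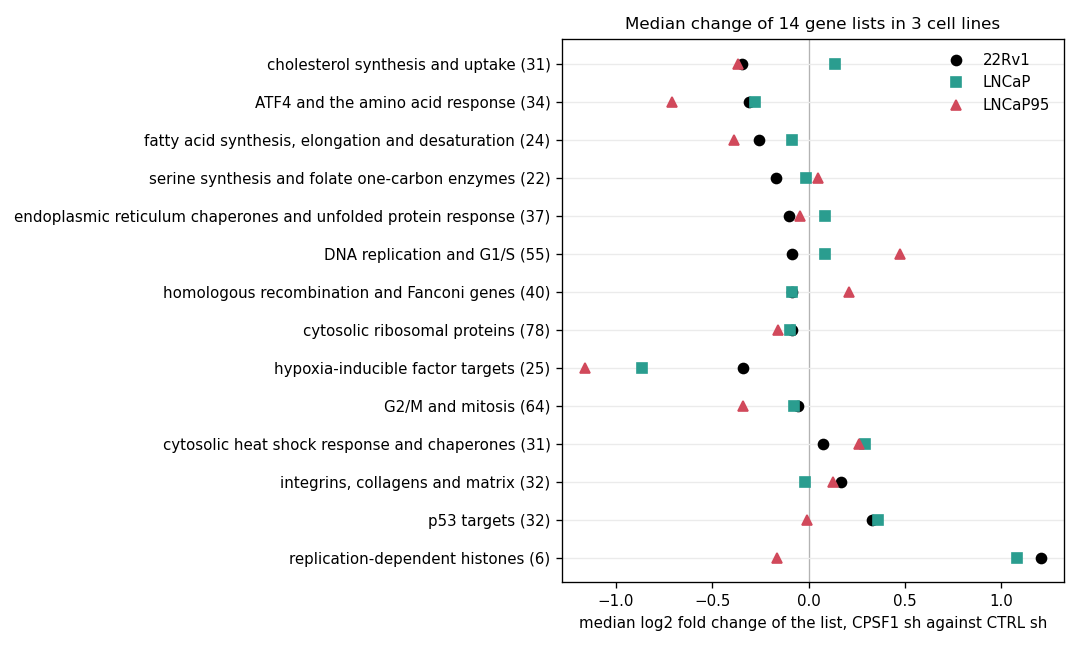
Median log2 fold change of 14 gene lists in 22Rv1 (circles), LNCaP (squares) and LNCaP95 (triangles), from a fit of 27 libraries, with the number of genes above the filter in every library in parentheses. For cholesterol synthesis and uptake LNCaP lies at 0.14 while 22Rv1 and LNCaP95 lie at -0.35 and -0.37, and for p53 targets and histones LNCaP95 is the line near 0.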

How the data were processed

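RNA was sequenced from poly(A)-selected, stranded libraries. According to the submitters' processing notes and the study's methods, the authors aligned reads to GRCh37 with HISAT2 (version 2.1.0) and counted them on exons of Ensembl genes with featureCounts of Subread (2.0.3 in the notes, another version in the methods), reverse-stranded. The deposited table holds raw counts per gene, with coordinates, for 27 libraries, and every column matched a sample's label.

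Counts of 20268 genes in 9 libraries of 22Rv1 cells were filtered to 11728 genes above 2 CPM in all 9, scaled by TMM and tested with the quasi-likelihood F-test of edgeR 4.0.16 (limma 3.58.1, R 4.3.3) in its older form, with Benjamini-Hochberg adjustment at 0.05. CPSF1 sh1 and sh2 were pooled, and a fit with 3 groups compared the hairpins. A fit of all 27 libraries tested the interaction with cell line. The biological coefficient of variation was 6.08%. On simulated counts for the main comparison, with 200 of the real genes changed by 1 log2 unit, all 194 changed genes among the 11875 tested were called and 5.37% of 205 calls were false. The simulation gave all genes the same spread, with no difference between hairpins and no library apart. Most real calls were also of less than 2-fold, so these shares need not hold for the real comparison. Figures and tables used Python 3.11.15, pandas 2.3.3, numpy 2.4.6 and matplotlib 3.10.9.

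The comparison, the gene lists and the tests were chosen with earlier results of these data known, so no list is independent support. The genes named as largest are the targeted gene, the 10 called genes with the largest rise and the 10 with the largest fall in ratio, and the 8 with the largest gain and the 8 with the largest loss of mean CPM. Members named in a list are called members chosen for their known roles after their values were seen, with a few uncalled ones given by value. Values of some single genes are not reported here, although those genes stay in the counts and medians of the lists. Lists are described by counts and medians beside those of all tested genes, with no test of the list. Alternatives were the other filter, scaling by size factors or library size, DESeq2 1.42.0, each hairpin alone, a replicate block and leaving out each library. Leaving out CPSF1 sh1 replicate 3 from the fit of 27 libraries was added after seeing the data. Promoters came from RefSeq (GRCh38.p14), which matched 9711 of 11728 tested genes, 688 of them by an older symbol, with the first listed promoter taken for a gene that has several, and stem-loops from the GRCh37 genome.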

Additional observations from a re-analysis of the deposited data

Results flagged for a closer look

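In the list of cytosolic ribosomal proteins, the mean log2 level of CPSF1 sh1 replicate 3 was the highest of the 6 knockdown libraries, and its gap to the nearest library was 0.68 of the range of the 6, above Dixon's critical value for a group of 6. This was 1 of 47 groups checked (11 lists and 36 genes), and chance flags about 5% of groups.

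The effect of the knockdown differed between cell lines by edgeR's interaction test for many genes. It was higher in 22Rv1 than in LNCaP for 2104 genes and lower for 2064, and higher than in LNCaP95 for 2746 and lower for 2798. CPSF1 mRNA fell by less in 22Rv1 than in LNCaP95, with a difference of 0.386 on the log2 scale. Against LNCaP95 the effect was higher in 22Rv1 by 1.01 for AOC3, by 2.17 for HIST1H1C and by 2.08 for HIST2H2BE, and differed by -1.01 for KCNAB3. Against LNCaP the effect on NDUFA4L2 differed by 2.39, the fall being smaller in 22Rv1. The part of this smaller fall of CPSF1 in the other differences was not tested.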

How the results depend on the processing

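The number of calls depended on the libraries used. When the sh1 libraries alone were set against the controls 849 genes were higher and 1004 lower, for the sh2 libraries 2955 and 3095, and with a change of more than 2-fold 61 and 32. Leaving out each library in turn gave 875 to 2214 higher and 1091 to 2372 lower. Without CTRL sh replicate 1, 2 or 3 the counts higher were 875, 884 and 887, and the lowest count lower came without CTRL sh replicate 2, and the highest counts came without CPSF1 sh1 replicate 3, which stood apart. Between the hairpins the range was 259 to 1059 higher and 301 to 1024 lower with CPSF1 sh2, the lowest without CPSF1 sh2 replicate 1. Replication genes called lower numbered 7 for sh1 alone and 29 for sh2 (7 to 23 when a library was left out), and ribosomal proteins 7 and 56 (7 to 45). Endoplasmic reticulum genes called lower numbered 7 with CPSF1 sh1 alone (9 to 15 when a library was left out), and heat shock genes called higher 3 and 17 (4 to 11). With edgeR's wider filter 20 histone genes were higher, but a gene can pass that filter through its knockdown libraries alone. For the lists of cholesterol, fatty acid, serine, ATF4, p53 and matrix genes no alternative moved the count by over 1.5 times. DESeq2 called 1441 genes higher and 1627 lower. Over 62 lists and 18 alternatives, 1051 of 1116 list medians moved by less than a set SD. This was the SD of the list's mean log2 level over the CPSF1 sh libraries of both hairpins. Such an SD includes the difference between the hairpins and can exceed the spread between replicates. In the cholesterol list it was 0.123, against 0.0243 within CPSF1 sh1 and 0.00579 within CPSF1 sh2. Of 15678 values for 871 reported or called list genes, 13534 kept their call and 2144 lost it, and none of these changed sign. The 36 genes named for the largest changes kept theirs in all 648. Apart from CPSF1, they were chosen as called, separated and most extreme in these same libraries. Their count is therefore no independent support and cannot be set against that of the list genes.

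Replicates with the same number had correlations of -0.111 to 0.196, within the range of -0.278 to 0.253 for pairs with different numbers. With 3 libraries per group this cannot show whether same-numbered libraries were handled together. With a replicate block 1197 genes were higher and 1441 lower, 582 and 617 differed between the hairpins, and the interactions numbered 1952 and 1884 against LNCaP and 2597 and 2668 against LNCaP95.

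With 3 controls shared by both hairpins, an error in a control library enters every comparison in 22Rv1. The hairpins, the infections and any effects on other targets cannot be told apart from CPSF1 beyond what both hairpins share. Nothing used here says whether replicates were separate infections, and p-values measure the spread between these libraries. Values of low genes rest on few reads. Exon counts do not show where transcripts end.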

Other observations

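Of 37 genes of the tricarboxylic acid cycle and pyruvate entry 11 fell and 5 rose. The pyruvate dehydrogenase kinase genes PDK1 (27.1 to 14.7 CPM) and PDK3 (17.5 to 10.8 CPM) and the pyruvate carrier genes MPC1 (22.4 to 16.3 CPM) and MPC2 (252 to 203 CPM) fell, while OGDH (318 to 374 CPM) and the malic enzyme gene ME2 (68.3 to 84.1 CPM) rose. PDK1 is also a target of the hypoxia-inducible factor. In the pentose phosphate list 5 of 14 fell and 1 rose, with DERA going from 45.9 to 29 CPM, and in purine and pyrimidine synthesis 7 of 32 fell and 1 rose (9 and 3 without CPSF1 sh1 replicate 3), with the salvage gene HPRT1 going from 99.4 to 72.7 CPM. Genes of nonsense-mediated decay, the exosome and deadenylation rose more often than they fell, 8 against 2 of 38 (21.1% higher, against 12.7% of all genes), and 14 against 4 without CPSF1 sh1 replicate 3 (background 18.9% higher).

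In the cytoskeleton 10 rose and 10 fell of 49. The filamin gene FLNA (291 to 370.5 CPM) and drebrin, DBN1 (118 to 176 CPM), rose and the tubulin gene TUBB2B (23.8 to 13.3 CPM) fell. Of 53 channel genes 9 rose and 12 fell. The potassium channel gene KCNS3 fell from 8.97 to 4.37 CPM and the epithelial sodium channel gene SCNN1A from 65.2 to 39.8 CPM, and KCNH5 rose from 2.15 to 4.44 CPM. Among 93 chromatin modifiers 14 rose and 11 fell, near the background, but without CPSF1 sh1 replicate 3, 26 were higher (28%, against 18.9% of all genes) and 14 lower. The demethylase gene KDM5B rose from 83.9 to 127 CPM, and the remodeller gene SMARCA1 (43.2 to 29.2 CPM) and the methyltransferase genes DNMT1 (348 to 301 CPM) and DNMT3B (29.3 to 21.7 CPM) fell. In the retinoid and aldehyde list the receptor genes RXRA (32.8 to 43.7 CPM) and RARB (12.3 to 18.4 CPM) rose and RARG (82.8 to 69.9 CPM) fell. Of 105 small GTPase genes 15 rose and 9 fell (18 and 15 without that library), with RAB34 going from 2.71 to 6.03 CPM.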
